A study of Glycine max with 4 samples.

Results

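Chromosome 4 of the soybean (Glycine max) carried 585 of the 11436 regions of open chromatin listed for embryos at early maturation. These 585 regions, called peaks, were taken as all entries of the list on that chromosome, and each of them is used below. Of the rest, 10134 peaks lay on the other 19 chromosomes and the remainder on unplaced scaffolds. The chromosome was singled out because the contrast between its ends and its middle had been the highest among the 20 chromosomes, so that contrast is given as a description and without a test.

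The embryos were of the cultivar Williams 82 and were dissected by hand from seeds 6 to 7 mm long, with no treatment or genetic change named. Open chromatin was profiled by ATAC-seq, in which the Tn5 transposase cuts and tags DNA mainly where nucleosomes leave it exposed, on 50000 nuclei per reaction. There were 2 biological replicates, each sequenced in single-end and in paired-end mode, and the authors used only the paired-end data, per the series' design text. The study held 1 tissue and 1 stage and its list gave positions without read counts, so no depth, peak height or replicate error could be attached to any value. Intervals below cover counting error only, and they treat peaks as independent, although neighbouring peaks are not.

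Plant chromosomes are commonly divided into arms, rich in genes and in recombination, and a central heterochromatic block around the centromere, where repeats such as retrotransposons are dense and genes are few. In the soybean this central block takes up a large part of most chromosomes. Accessible sites in plants are mostly short stretches at gene promoters and at distal regulatory elements. No gene is named here, because no gene coordinates known to fit the peak positions were used. Positions count from 1 and follow the authors' list, whose genome build the sources used here do not name.

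Peaks on chromosome 4 were crowded in both end regions and thin between them. The first 25% of the span held 252 peaks, the last 25% held 209, and the inner 50% held 124. The start thus carried 19.3 peaks per Mb, the end 16.0 and the inner part 4.75. The outer parts together had 17.7 peaks per Mb, and the ratio of outer to inner density was 3.72. The first peak ran from 21104 to 21465 and the last from 52178613 to 52179013, where the span of 52.2 Mb was taken to end.

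The high ratio came with both a dense outside and a thin inside. The inner density of 4.75 peaks per Mb was the lowest of the 20 chromosomes, where the other 19 ranged from 4.86 on chromosome 16 to 11.9 on chromosome 13. The outer density of 17.7 ranked 4 from the top, below a highest value of 18.6 on chromosome 11. The next highest ratio was 3.25 on chromosome 14, which had the same outer density of 17.7 but 5.44 peaks per Mb inside, and chromosome 16 followed at 2.97. Averaged along its whole span, chromosome 4 held 11.2 peaks per Mb, rank 13 of 20 (ranks here count from the highest value). Counted as accessible length, the outer parts held 8.75 kb of peak per Mb and the inner part 2.71, a ratio of 3.23 against a median of 1.90 over the other chromosomes. Chromosome 14 came close by this measure, at 3.14.

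**Figure D1:**
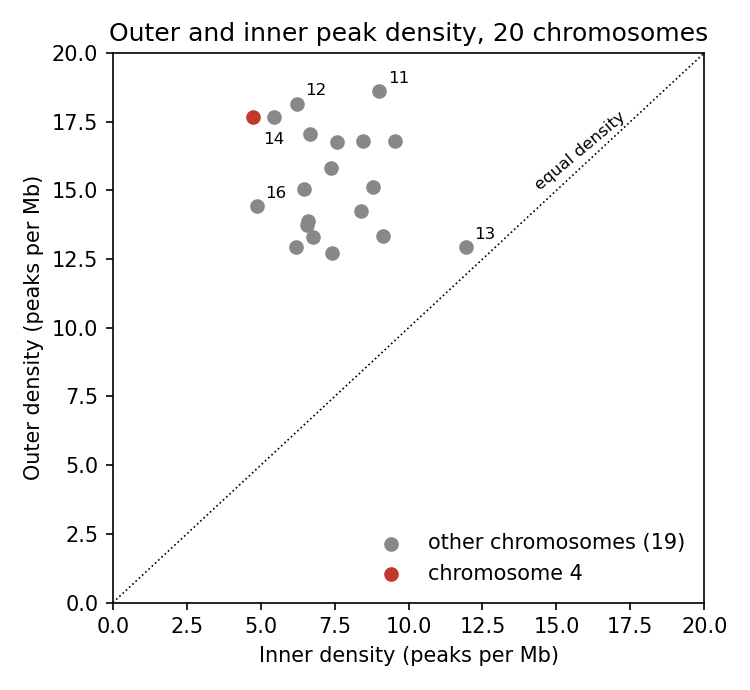
Peak density in the outer parts (first and last 25% of the span, vertical axis, peaks per Mb) against density in the inner part (horizontal axis, peaks per Mb), 1 point per chromosome, some marked with their number. Chromosome 4 lies farthest to the left, at 4.75 inside and 17.7 outside; the dotted line marks equal density, and chromosome 13 is the point nearest to it.

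To find where the density changed, 2 boundaries and 3 densities were fitted to the counts in windows of 1 Mb. The boundaries fell at 10 Mb and 42 Mb, which is 19.2% and 80.5% of the span. No other pair of positions on the 1 Mb grid came within 2 log-likelihood units of this fit. This margin takes counts as Poisson with constant density in each part. In the middle their variance was 2.06 times the mean, so the margin can overstate how firmly the boundaries are placed. The start arm then held 233 peaks at 23.3 per Mb, the middle 166 peaks at 5.19 per Mb over 32 Mb, and the end arm 186 peaks at 18.3 per Mb. The middle therefore made up 61.3% of the span and held 28.4% of the peaks. The boundaries were chosen from the same counts, so these densities carry no test. Below, the arms and the middle are the parts cut by these boundaries, and the outer and inner parts are those of fixed extent used before.

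The start arm was the densest that this fit gave to the start of any chromosome, with 23.0 on chromosome 5 the next. Fitted arms differ in length between chromosomes, and over the first 25% of the span the start of chromosome 4, at 19.3 peaks per Mb, ranked 4, with the highest value of 20.3 on chromosome 17. The density of the end arm ranked 12 of 20 among end arms. With boundaries fitted to each chromosome separately, the contrast of chromosome 4 was no longer the highest. Its ratio of arm to middle density was 4.003, which ranked 3, and chromosome 10 had 4.88. The middle density of 5.19 was then close to the median of the other chromosomes, also 5.19. That middle covered more of the span than on all but 3 of the others, where the median was 49.5%. On chromosome 13 the fitted middle was not the sparsest of its 3 parts, so a contrast of arm and middle does not describe that chromosome.

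The density of the start arm did not thin out toward the middle. Its 10 windows of 1 Mb held 18 to 31 peaks with a median of 22. The first 5 Mb held 111 peaks and the next 5 Mb held 122, so the part nearer the middle was at least as full as the part nearer the end. The fullest windows of the whole chromosome lay there, with 31 peaks between 7 and 8 Mb, 29 between 5 and 6 Mb and 28 between 3 and 4 Mb. The stretch from 0 to 10 Mb was also the fullest 10 Mb of the chromosome.

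The change at 10 Mb was abrupt. The last window before the boundary held 22 peaks and the first one after it held 3. Over 3 Mb on each side the counts were 75 and 19, a 3.95-fold change, and over 5 Mb they were 122 and 35, a 3.49-fold change. The edge coincided with a stretch of 1.09 Mb without any peak, from 10077035 to 11165500, which was the first stretch of at least 500 kb on the chromosome. Beyond it the density partly recovered: the window between 11 and 12 Mb held 12 peaks and the one between 13 and 14 Mb held 14, with 4 peaks between them. From 14 Mb on, the next 11 windows held between 1 and 7 peaks each.

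The end side changed more gradually. From 34 Mb on, the windows of the middle held 1, 2, 5, 2, 5, 10, 8 and 7 peaks in turn. The window after the boundary held 19, but the one after that held 9, and only from 46 Mb on did windows reach 23. By steps of 5 Mb, there were 24 peaks from 35 to 40 Mb, 58 from 40 to 45 Mb and 104 from 45 to 50 Mb. Across the boundary at 42 Mb the counts over 3 Mb were 25 and 43, a 1.72-fold change, and over 5 Mb they were 32 and 82, a 2.56-fold change. The end arm also contained the only peak-free stretch of at least 500 kb outside the middle, 511 kb from 43649840 to 44160721. The longest stretch without a peak in the start arm was 212 kb, from 6109888 to 6322310.

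**Figure D2:**
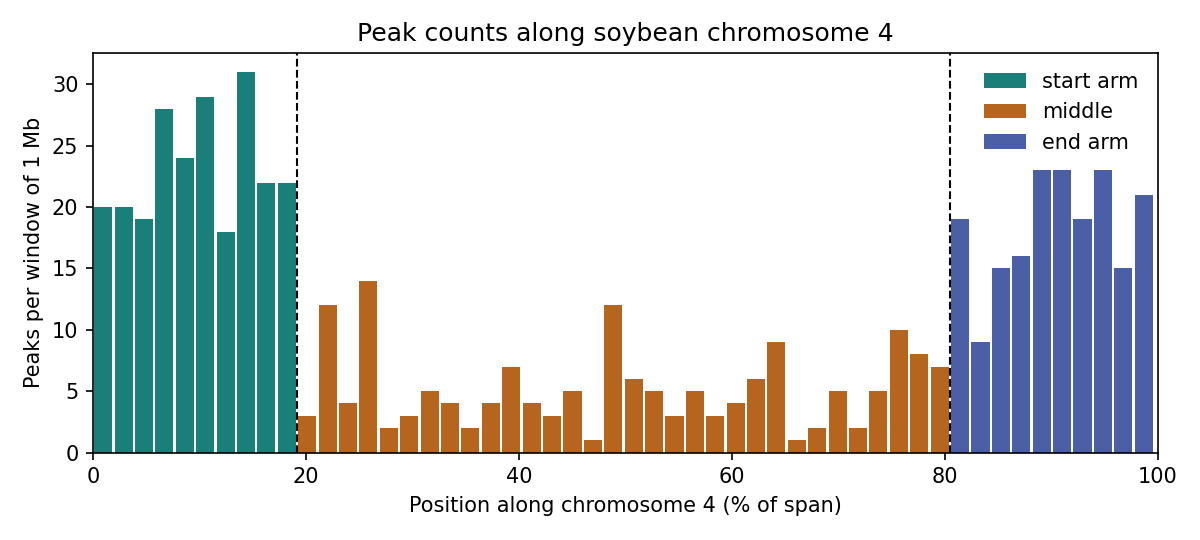
Number of peaks in each full window of 1 Mb (vertical axis) along chromosome 4 (horizontal axis, percent of the span), coloured by part, with dashed lines at the fitted boundaries at 19.2% and 80.5%. Counts drop from 22 to 3 across the first line and climb over several windows around the second.

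Chromosomes were also compared by the largest change in number between adjacent stretches of 3 Mb, taken anywhere along each. Such steps need not lie at the fitted boundaries. On chromosomes 13, 15, 18, 19 and 20 the steepest fall lay beyond the steepest rise, so there they are not a start and an end edge. Going from the start, the steepest fall on chromosome 4 was from 75 to 18 peaks at 10.1 Mb, a difference of 57. Only 2 of the other 19 chromosomes had a larger fall, up to 72 on chromosome 10. The steepest rise was from 36 to 66 peaks at 45.9 Mb, inside the end arm. That was a difference of 30, and 17 of the others had a larger one. The fall exceeded the rise by 27 peaks, the largest gap between fall and rise in either direction among the 20. The others ranged from a rise larger by 23 on chromosome 11 (a fall minus rise of -23) to a fall larger by 12 on chromosome 5. These are ranks within 1 list, and no test of them was made. They rank the steepest steps and not how unlike the 2 arm edges are.

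**Figure D3:**
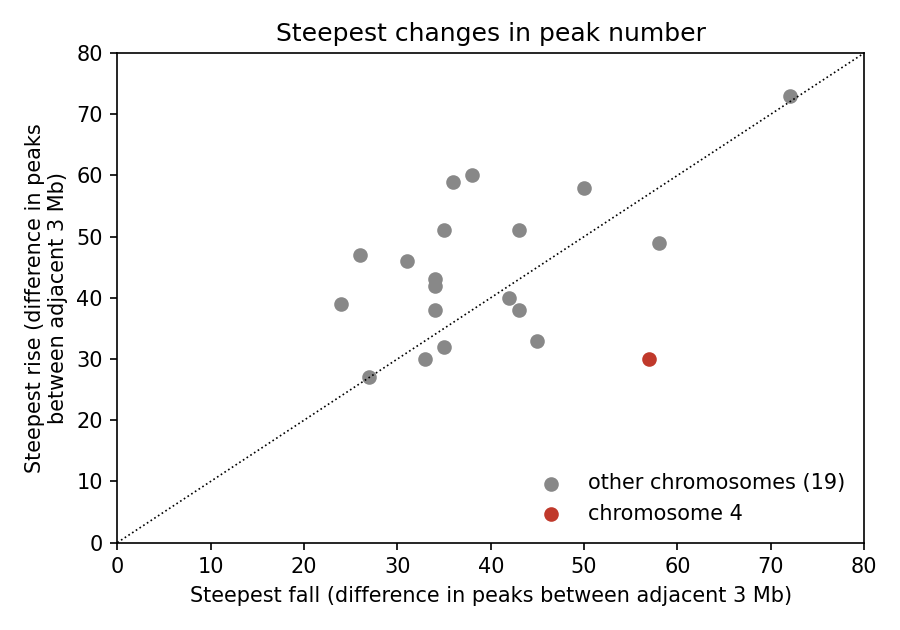
Steepest rise against steepest fall in peak number between adjacent stretches of 3 Mb, read from the start of each chromosome (both axes in peaks), 1 point per chromosome; the dotted line marks an equal rise and fall. Chromosome 4, with a fall of 57 and a rise of 30, lies farthest below the line. Both steps were taken anywhere along a chromosome and need not lie at its arm edges.

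Inside the middle, peaks were thin but uneven. Its 32 windows of 1 Mb held 1 to 14 peaks with a median of 4.5, and 22 of them held at most 5. That was the largest number of windows with at most 5 peaks on any chromosome, and as a share, 42.3% of full windows, it ranked 2 behind the 43.2% of chromosome 16. The variance of the counts was 2.06 times their mean in the middle, against 0.888 in the start arm and 1.14 in the end arm. Counts varied more from window to window in the middle, relative to their mean, than in either arm. Among fitted middles the value of chromosome 4 was ordinary: it ranked 12 of 20, and the median of the others was 2.16.

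The sparsest 10 Mb lay from 14.7 to 24.7 Mb with 38 peaks, against 233 in the fullest 10 Mb, a 6.13-fold difference. Single peaks remained in the windows between 24 and 25 Mb and between 34 and 35 Mb, and 2 in the window between 14 and 15 Mb. By equal parts of the middle, density was 5.63 peaks per Mb in the first, 4.59 in the second and 5.34 in the last. Only 4 windows of the middle had 10 peaks or more: the pair near the left edge, the window between 39 and 40 Mb, and the window between 25 and 26 Mb, close to the centre of the chromosome. This last one held 12 peaks, 6 of them in 1 group from 25937623 to 25954748.

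Long stretches of the middle had no peak. Chromosome 4 had 19 peak-free stretches of at least 500 kb, more than 17 of the other chromosomes, equal to 1 of them and fewer than the 20 of chromosome 10. They lay between 10077035 and 44160721 and added up to 14.4 Mb, which is 42.1% of the 34.1 Mb from the first to the last of them. As a share of the chromosome, 27.5%, they ranked 4 of 20, and the highest share was 33.6% on chromosome 20. In the middle itself, 18 such stretches took up 43.3% of the length. The start arm had none.

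The longest stretch ran from 34220921 to 35820150, a length of 1.60 Mb, and was centred at 67.1% of the span. It was followed by 1.12 Mb from 22604016 to 23726284, by the stretch of 1.09 Mb at the left edge and by 1.07 Mb from 24230538 to 25295651. The second and the last of these 4 were close neighbours near the centre. A stretch of 728 kb, from 21749263 to 22477129, lay just before them. The other 5 of the 10 longest ran from 18095538 to 18996723 (901 kb), from 14626616 to 15476383 (850 kb), from 37660993 to 38395706 (735 kb), from 32209923 to 32886270 (676 kb) and from 37037670 to 37660573 (623 kb). With 1.60 Mb, the longest stretch of chromosome 4 ranked 5 among the longest stretches of the 20 chromosomes, of which the highest was 2.37 Mb on chromosome 15.

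Some stretches were parted by a single peak. A peak of 419 bp, from 37660574 to 37660992, had 623 kb of peak-free sequence before it and 735 kb after it. The peak from 18996724 to 18997029 (306 bp) stood between 901 and 477 kb, and the peak from 30271102 to 30271590 between 595 and 459 kb. The peak from 37037484 to 37037669 had 464 and 623 kb around it, and the peak from 34220527 to 34220920 had 376 kb before it and the longest stretch after it. Isolation restates the spacing by which the parts were cut, so the shares by part are a description, and the first and last peak of the chromosome were left aside. In the middle, 49 of 166 peaks (29.5%, 95% exact binomial interval 22.7 to 37.1) were at least 100 kb from the nearest peak on both sides. In the start arm this held for 4 of 232 (1.72%, interval 0.472 to 4.36), and in the end arm for 6 of 185 (3.24%, interval 1.20 to 6.93). The isolated peaks of the middle had a median width of 427 bp, and its other peaks 510 bp. No interval was computed for these 2 medians, and their difference was not tested.

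The typical distance between neighbours was over 3 times as long in the middle as in the arms. From the end of a peak to the start of the next, the median gap was 28.6 kb in the start arm (95% binomial interval of the median 21.1 to 34.3), 32.6 kb in the end arm (27.2 to 42.7) and 104 kb in the middle (54.9 to 150). The parts were cut where density changes, and the mean gap is about the inverse of density. A longer mean gap in the middle was thus fixed by that choice. The median gap is not fixed in the same way, but it is read from the same positions and is no separate evidence. Its intervals give only the precision of each median. The arms' intervals overlapped each other. The upper quartile was 63.0 kb in the start arm, 68.5 kb in the end arm and 286.5 kb in the middle. The lower quartiles were closer together, at 9.10, 13.2 and 15.6 kb. Gaps of the middle differed from those of the arms mainly among the longer ones.

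With the parts of fixed extent, the median gap was 32.1 kb in the outer parts and 119 kb in the inner part, a ratio of 3.71. That was the highest ratio of the 20 chromosomes, where the median of the others was 1.48, and 3 of the others had a ratio below 1. The next highest were 3.46 on chromosome 16 and 3.43 on chromosome 1. Both lay within the interval of the ratio of chromosome 4, 1.99 to 5.46. With fitted boundaries the ratio of chromosome 4 was 3.35 and ranked 5. The gap, like the density, is read from the positions for which the chromosome was picked, so this ranking is no separate evidence.

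**Figure D4:**
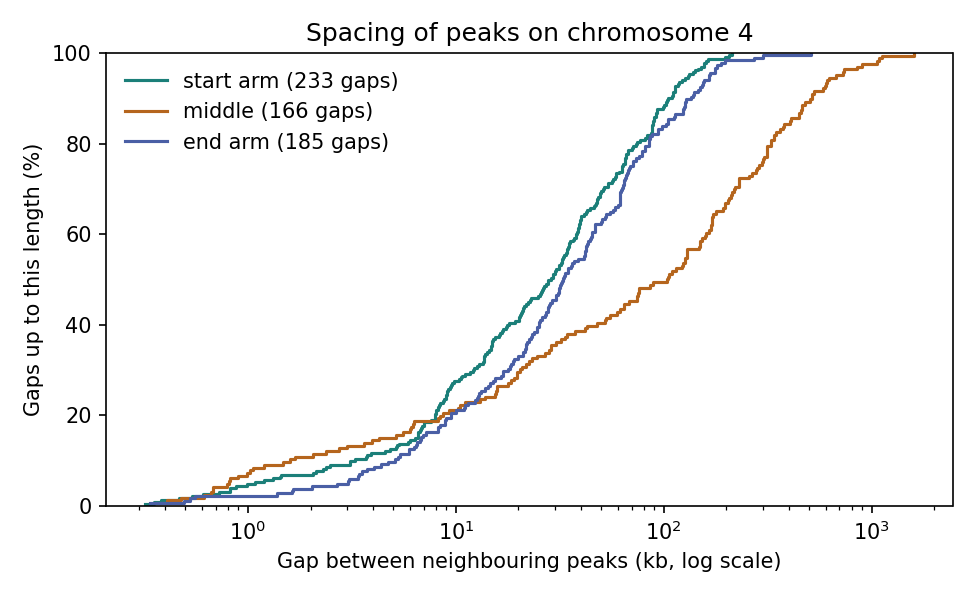
Cumulative share of gaps (vertical axis, percent) up to a given length (horizontal axis, kb on a log scale) in the start arm, the middle and the end arm of chromosome 4. The 3 curves lie close together for short gaps and part above about 10 kb, with medians of 28.6, 104 and 32.6 kb.

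Very short distances made up no smaller a share of neighbouring pairs in the sparse middle than in the arms. Midpoints within 5 kb of each other made up 25 of 166 neighbouring pairs in the middle (15.1%, 95% exact binomial interval 9.99 to 21.4), 28 of 233 in the start arm (12.0%, interval 8.14 to 16.9) and 17 of 185 in the end arm (9.19%, interval 5.44 to 14.3). The intervals overlapped. Over the whole chromosome the share was 70 of 584 pairs (12.0%, interval 9.46 to 14.9). That was the lowest of the 20 chromosomes, where the others ran from 13.0% on chromosome 3 to 22.3% on chromosome 10, although the interval takes in the lower of these values. The rank depended on the distance: within 10 kb the share was 23.1% and ranked 13.

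Split by part, the share was low in the crowded ends. In the outer parts 10.4% of neighbours were within 5 kb, again below each of the other 19, of which the lowest was 11.8%. In the inner part the share was 17.7%, rank 11 of 20. The coefficient of variation of the gaps in the fitted arms was 1.11, rank 19 of 20, and the variance of counts per window in the arms was 1.26 times the mean, rank 16, against a median of 2.44 over the other chromosomes. By these measures, peaks in the arms of chromosome 4 were spread more evenly than in the arms of most of the others, which was not tested. Both arms of a chromosome were pooled for them, so a difference in density between its arms also counts as unevenness.

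Groups of peaks were small. With gaps of at most 10 kb joined, 358 peaks (61.2%) stood alone, and the rest formed 53 pairs, 25 groups of 3 and 11 groups of 4 or more. The largest group had 6 peaks, a size that 7 other chromosomes shared as their largest, while the largest group anywhere had 42 peaks, on chromosome 10. That group of 6 was the one near the centre, over 17.1 kb, with widths from 282 to 1344 bp and 22.3% of its length inside peaks. The other 10 groups had 4 peaks each.

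The groups of 4 fell in all 3 parts. The most fully covered ran from 7848267 to 7854497 in the start arm, whose 4 peaks, at a median of 1017.5 bp, filled 63.6% of 6.23 kb. Others in the start arm began at 6322311 (ending at 6338761), 7923355 (at 7940395) and 9172281 (at 9198534). The middle held groups of 4 at 13976974 to 13985011, 20230861 to 20235847 and 32886271 to 32895274. The last of these followed directly on the peak-free stretch of 676 kb and held peaks of up to 1362 bp, which filled 39.2% of it. The end arm had groups at 42112571 to 42127728, 46131869 to 46153407 and 49747120 to 49767862, of which peaks filled 13.8%, 5.90% and 8.74%. The peaks that stood alone made up 53.6% of the start arm (95% exact binomial interval 47.0 to 60.2), 66.3% of the middle (58.5 to 73.4) and 66.1% of the end arm (58.8 to 72.9). The share was lowest in the start arm, whose interval overlapped the others only at its upper end. The difference was not tested.

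Peaks of chromosome 4 were 7 to 3354 bp wide, their median being 464 bp and the quartiles 306 and 618 bp. The median was 444 bp in the start arm (95% binomial interval 409 to 468), 474 bp in the end arm (426 to 508) and 492.5 bp in the middle (422 to 531). These intervals overlapped, which is not a test, and no difference in width between the parts is claimed. With the parts of fixed extent, the inner median was 496.5 bp and the outer one 462 bp. The inner minus outer difference of 34.5 bp ranked 9, and the difference was above 0 on 15 of the other 19 chromosomes.

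The most frequent width of the list was exactly 306 bp, and its share was lower in the fitted middle of chromosome 4 than in the fitted arms. It was the width of 42 of 233 peaks in the start arm (18.0%, 95% exact binomial interval 13.3 to 23.6), of 34 of 186 in the end arm (18.3%, interval 13.0 to 24.6) and of 12 of 166 in the middle (7.23%, interval 3.79 to 12.3). The interval of the middle lay below those of both arms. The share in the middle was the lowest that the fit gave on any of the 20 chromosomes, where the median of the others was 12.8%. In the inner part of fixed extent the share was 8.06% (interval 3.935 to 14.3), again the lowest of the 20. In the outer parts it was 16.9% (interval 13.6 to 20.7), which ranked 14. These intervals overlapped at their ends, so the intervals were apart only for the fitted parts. Overlap of intervals is not a test, and the difference was not tested. A lower share inside than outside was found on 17 of the other 19 chromosomes too, and the share of 7.56% in the fitted middle of chromosome 19 lay within the interval of chromosome 4. Within the middle, 8 of the 12 peaks of this width lay in its first part of equal length, next to the start arm, and 2 in each of the others. Peaks narrower than this were about as frequent in the middle (12.7%) as in the start arm (13.7%) and the end arm (9.68%).

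**Figure D5:**
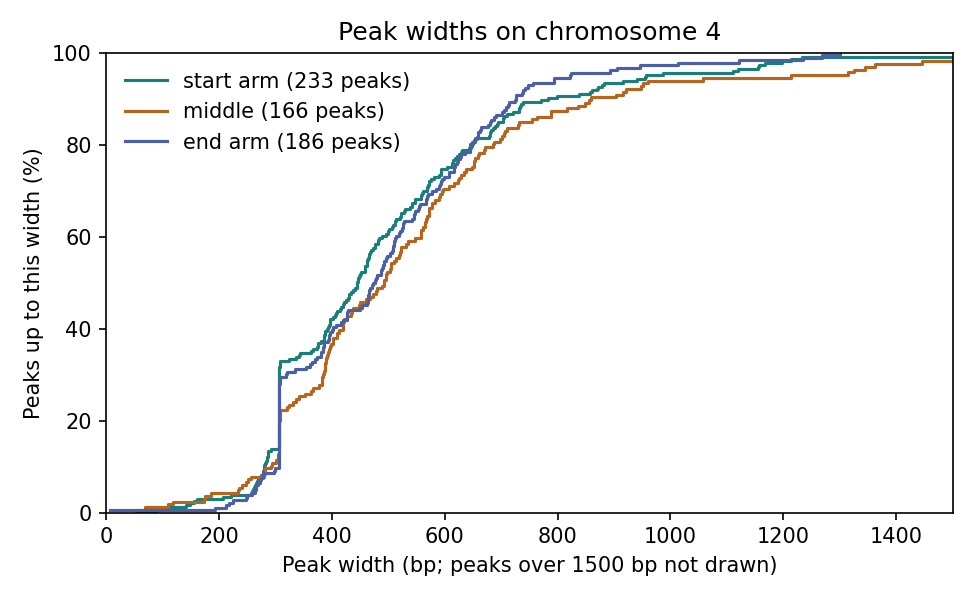
Cumulative share of peaks (vertical axis, percent) up to a given width (horizontal axis, bp) in the start arm, the middle and the end arm of chromosome 4. The vertical step at 306 bp is 18.0% high in the start arm, 18.3% in the end arm and 7.23% in the middle.

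Wide peaks were few. In all, 25 peaks had at least 1 kb, which were 10 in the start arm, 10 in the middle and 5 in the end arm. As shares these were 4.29% (95% exact binomial interval 2.08 to 7.75), 6.02% (2.93 to 10.8) and 2.69% (0.878 to 6.16), which overlapped. Only 2 peaks had at least 2 kb, where the median of the other chromosomes was 4 and chromosome 10 had 20. Both lay in the middle: the widest ran from 33841218 to 33844571 with 3354 bp, 105 kb after the peak before it and 376 kb ahead of the next, and the other ran from 27954879 to 27957330 with 2452 bp, 10.5 kb after its neighbour and 528 kb ahead of the next. The next widest were 1816 bp from 9726167 to 9727982, close to the left edge, 1767 bp from 4493878 to 4495644, and 1565 bp from 25863041 to 25864605. The gaps around these 3 were 131 and 1.32 kb, 12.1 and 17.7 kb, and 301 and 18.5 kb, so the 5 widest peaks shared no one spacing.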

How the data were processed

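The authors deposited 1 peak list of 3 columns, whose values are positions in base pairs (sequence, start counted from 0, end). It holds no count, score or signal, so depth is unknown. Its name describes an intersection; how replicates were joined, the genome build and the settings for calling peaks are not stated in the sources used here. Bowtie2 2.3.4.1, SAMtools, HOMER and bedtools are named without a role, per the submitters' processing notes. The list was treated as pooled from the paired-end samples.

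Spans ended at the last peak, a lower bound of the chromosome's length. Peaks were assigned by midpoint, and gaps by their centre. Boundaries maximised the Poisson likelihood of counts in 1 Mb bins, with parts of at least 3 bins. This fit was tried only on simulated positions with sharp edges, arms of equal density and independently placed peaks. Gradual edges, unequal arms and uneven counts like those of chromosome 4 were not simulated. Steps of 100 kb were used for adjacent 3 Mb and for 10 Mb windows. Intervals are exact (Clopper-Pearson) for shares and from binomial order statistics for medians. Python 3.11.15, numpy 2.4.6, pandas 2.3.3, scipy 1.17.1 and matplotlib 3.10.9 were used. Regions were named by rule: the first and last peak, the 5 widest peaks, the 10 longest peak-free stretches, groups of at least 4 peaks, the 3 fullest and 3 emptiest windows, the fullest and sparsest 10 Mb and the most isolated peaks. Members and measures were chosen with earlier results of these data known, and measures beyond densities, boundaries, widths, gaps and close pairs after their values were seen. Sequences were not analysed here.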

Additional observations from a re-analysis of the deposited data

How the results depend on the processing

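No paired analysis was possible because the peaks come as 1 joined set without replicate labels, and no replicate could be left out. Of 39 alternatives for 7 values of chromosome 4, 33 stayed close. Close meant within a 95% interval, within 1 Mb for boundaries, or within 1.5 times for the number of stretches. The interval was binomial for the density ratio and the share of close pairs. For the width difference and the gap ratio it combined the intervals of 2 medians. The density ratio, outer over inner, lay between 3.35 and 4.02 and was the highest of 20 in 4 of 6 alternatives. It ranked 2 with outer parts of 30% and 3 with fitted boundaries. The left boundary stayed at 10 Mb throughout, and the right one moved only with bins of 500 kb, to 41.5 Mb. The gap ratio ranged from 3.13 to 4.53, while its interval ran from 1.99 to 5.46. The inner minus outer width ranged from 22.5 to 71.0 bp, while the interval of the reported difference ran from -44.8 to 107 bp. Both intervals were wide, so staying within them was a weak check.

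Some values moved with a definition. The number of long peak-free stretches, 19, became 4 from 1 Mb and 42 from 300 kb. The share of neighbours within 5 kb, 12.0%, became 8.94% among peaks at or above the median width, 7.36% with peaks within 1 kb merged, 5.82% within 2 kb and 23.1% within 10 kb. It ranked lowest of 20 with merged peaks and with narrow peaks left out, but 13 among the wider peaks, 18 within 2 kb and 13 within 10 kb. The low rank of close pairs thus depends on the distance used and on the peaks kept. A shorter distance lowers this share by construction, while leaving peaks out need not. The effect of depth could not be examined.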
